A study of Mus musculus with 6 samples.

Results

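Autophagy is the route by which cells enclose cytoplasm, organelles or lipid in a membrane sac and deliver it to the lysosome, and its machinery is represented here by 39 mouse genes. The genes were chosen by name, by a rule that uses no measured value though earlier results of these data were known, and all 39 were found among the 27240 genes of the deposited table. They fall into 8 role groups, from the kinase complex that starts the process to a tether that joins the finished autophagosome to the lysosome. Their transcripts were measured by sequencing of poly(A) RNA in mouse primary peritoneal macrophages, the resident phagocytes of the abdominal cavity. All 6 libraries came from cells that the labels give as treated with oxLDL, oxidised low-density lipoprotein, a modified lipoprotein particle that macrophages engulf. By genotype, 3 libraries are labelled WT (wild type) and 3 KO (knockout), used below as names of the groups, and the series title names DCLK1, a doublecortin-family kinase, in macrophages. The comparison is therefore between oxLDL-exposed macrophages of both genotypes, and cells without oxLDL were not analysed here. The labels do not give the strain, the age of the animals, the deleted stretch of the gene or any driver of the deletion. They also do not state if replicate libraries stem from different animals, and p-values here cover the spread between libraries, which may be technical.

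In outline, the ULK1 kinase complex and a class III phosphatidylinositol 3-kinase mark the site where an autophagosome forms, ATG9A, ATG2 and VMP1 bring membrane lipid to it, and WIPI proteins read the lipid mark. A pair of ubiquitin-like conjugation systems then attaches small ATG8 proteins (the LC3 and GABARAP families) to the growing membrane, where they bind cargo receptors such as p62, the product of Sqstm1. In lipid-laden macrophages the same route carries lipid droplets, aggregated protein and damaged lysosomes to degradation. Much of its control is at the protein level, by phosphorylation, lipidation and turnover, which RNA abundance does not measure.

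Each library held between 68053008 and 79090732 counts. Dclk1 itself was weakly expressed, at 6.70 to 7.43 counts per 1000000 (CPM) in WT and 5.15 to 5.89 CPM in KO (log2 fold change -0.37 ± 0.12 SE, edgeR adjusted p = 0.332). The groups did not overlap, but the difference did not pass the test, and the labels do not say which part of the gene was deleted. All 8 macrophage markers were measured, with Adgre1 at 1005 to 1083 CPM and Cd68 at 1936 to 2081 CPM over the 6 libraries. Of these 8 markers, 1 passed the test: Lyz2, the lysozyme gene, was at 15678 to 16980 CPM in WT and 7923 to 8004 CPM in KO. In 2 further markers the groups did not overlap, beside 17.6% of all genes tested, and the difference did not pass. Itgam, the CD11b gene, was at 232 to 415 CPM in WT and 417 to 599 CPM in KO (log2 fold change 0.65 ± 0.21 SE, edgeR adjusted p = 0.344). Csf1r, the receptor gene of a macrophage growth factor, was at 983 to 1041 CPM in WT and 959.8 to 968 CPM in KO (log2 fold change -0.08 ± 0.03 SE, edgeR adjusted p = 0.394). The summed markers of other cells reached at most 108 CPM, in the neutrophil list, against 12610 CPM or more for the macrophage list. For 5 lists of other cells the summed level did not overlap between genotypes, lower in KO for 4 and higher for the B cell list. The T and NK cell markers summed to 8.31 to 9.23 CPM in WT and 5.05 to 5.47 CPM in KO. The fibroblast and mesothelial markers summed to 71.3 to 73.96 against 54.4 to 63.7 CPM, the mast cell markers to 4.31 to 4.77 against 2.28 to 3.53 CPM and the dendritic cell markers to 29.0 to 35.2 against 23.6 to 24.3 CPM. The B cell markers summed to 0.794 to 1.23 against 1.24 to 2.56 CPM, so their groups nearly touched. Members of a list did not all follow its sum. In the dendritic cell list Flt3, Zbtb46, Ccr7 and Fscn1 had log2 fold changes of 0.03, -0.04, -0.33 and -0.51. In the fibroblast and mesothelial list 6 of the 8 were below 0, while Upk3b and Lum had 0.02 and 0.62. The sums were not tested. Neutrophil markers summed to 99.5 to 108 against 102 to 104 CPM, with Ly6g at 0 in all 6 libraries and S100a9 at 0 to 0.205 CPM. These sums overlapped, but each of the 3 neutrophil markers tested had groups that did not overlap, beside 17.6% of all genes tested. Of the 3, 0 passed. S100a8 was at 23.5 to 26.3 CPM in WT and 20.3 to 22.6 CPM in KO, and Csf3r at 47.1 to 49.7 against 45.1 to 45.8 CPM. Mmp8 went the other way, at 28.3 to 32.6 against 35.5 to 37.3 CPM. The 2 eosinophil markers measured, of 4, reached at most 1.09 CPM. The part of other cells in the values of the autophagy genes was not tested. In such bulk RNA, fewer cells of a type and less RNA per cell cannot be told apart.

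Of the 39 autophagy genes, 0 passed an adjusted p of 0.05 in the edgeR quasi-likelihood test, where 11 of the 16239 genes tested (0.0677%) did, 4 of them higher and 7 lower in the knockout. At an unadjusted p under 0.05 there were 4 of the 39 (10.3%), beside 10.4% of all genes tested. Of these 4, 3 were above wild type, beside 4.73% of all genes, and 1 was below, beside 5.71%. DESeq2 called 3.57% of the genes to which it gave an adjusted p, and limma on log2(FPKM + 1) called 8 genes. Neither called an autophagy gene. In 7 of the 39 the wild-type and knockout libraries did not overlap (17.9%), against 17.6% of all genes tested. Both shares lay near the background and say nothing about the autophagy genes as a group. The 7 were Wipi2, Atg7, Atg12, Nbr1 and Tax1bp1, above wild type (5 of 39, beside 8.68% of all genes), and Vmp1 and Gabarapl1, below it (2 of 39, beside 8.89%).

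The fitted differences were small. The log2 fold changes, knockout over wild type, ran from -0.37 for Map1lc3a to 0.20 for Atg14, with 21 above 0, 18 below and a median of 0.015, beside a median of -0.0019 over all genes tested. The median absolute log2 fold change was 0.075, against 0.13 over all genes tested and 0.087 over the 10360 genes with a mean of at least 1 FPKM (fragments per kilobase of gene length, scaled for library size). The 95% intervals show what size of difference these libraries leave room for. For 31 of the 39 genes the whole interval lay within a 1.25-fold change in either direction, for 37 within 1.5-fold and for all 39 within 2-fold. The corresponding share within 1.25-fold was 79.5% of the autophagy genes and 54.1% of genes with at least 1 FPKM, and the autophagy genes also had a smaller median standard error (0.062 against 0.087). The 8 genes whose intervals reached past 1.25-fold were Rb1cc1, Atg14, Atg9a, Wipi1, Atg10, Atg16l2, Map1lc3a and Map1lc3b. A p that misses the threshold does not show that the genotypes are alike, and these intervals are the limit the data set.

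**Figure D1:**
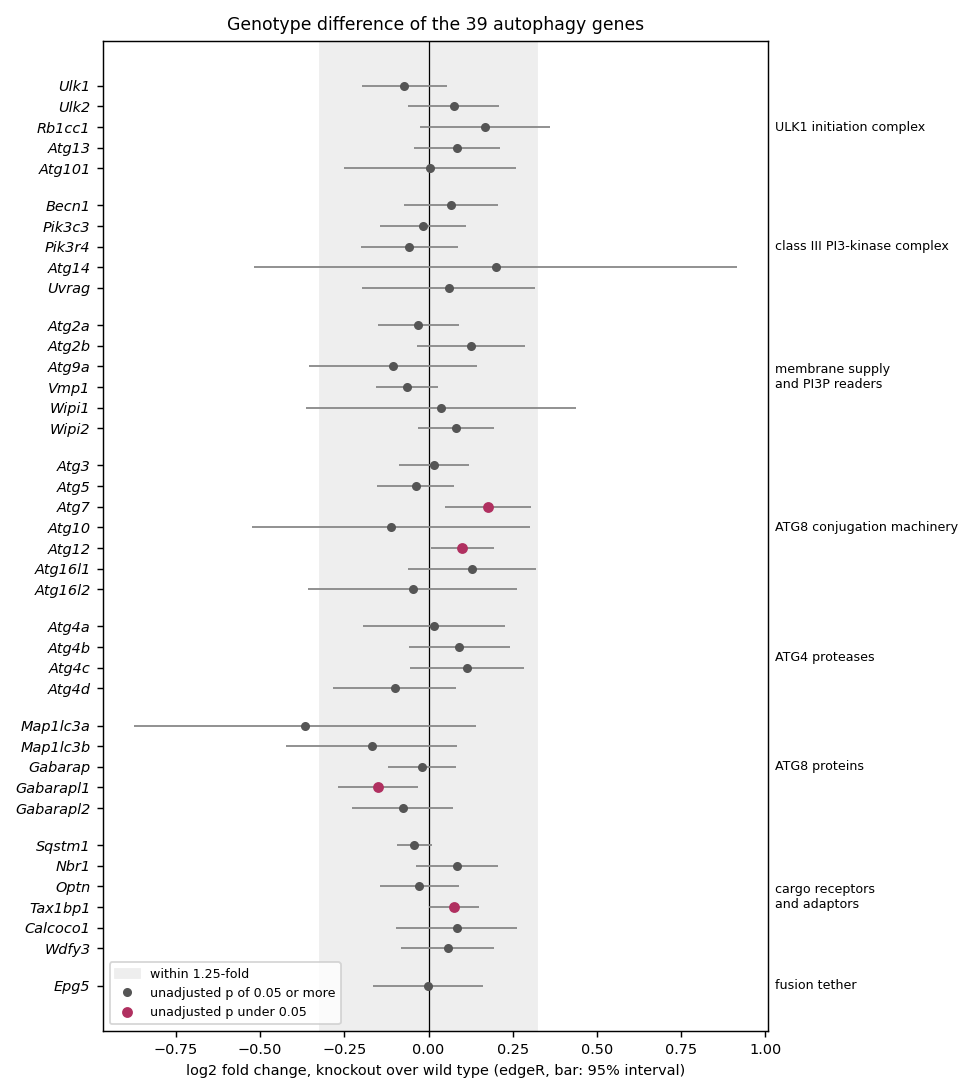
Log2 fold change (horizontal axis, knockout over wild type) of each of the 39 autophagy genes, grouped by role, as points with 95% intervals as bars; the grey band spans a 1.25-fold change in either direction. The bars of 31 genes stay inside the band, the 4 red points are genes at an unadjusted p under 0.05, and none of the 39 passed the adjusted threshold.

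Expression across the machinery spanned more than 3 orders of magnitude per unit of length, from a mean of 0.542 FPKM for Atg16l2 to 1001 FPKM for Sqstm1. Sqstm1 ranked 26th of the genes tested by mean FPKM, followed within the machinery by Gabarap (215 FPKM), Gabarapl1 (173 FPKM), Vmp1 (43.4 FPKM) and Tax1bp1 (40.1 FPKM). The most abundant transcripts were thus those of the cargo receptor p62 and of 2 ATG8 proteins. The 10 genes of the initiation complex and the class III lipid kinase complex lay between 2.26 and 17.1 FPKM. Together the 39 genes took 0.700% to 0.718% of all counts, and Sqstm1 alone took 52.1% to 53.4% of that share. Without Sqstm1 the remaining genes summed to 3310 to 3394 CPM in WT and 3326 to 3369 CPM in KO, so the knockout range fell inside the wild-type range.

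**Figure D2:**
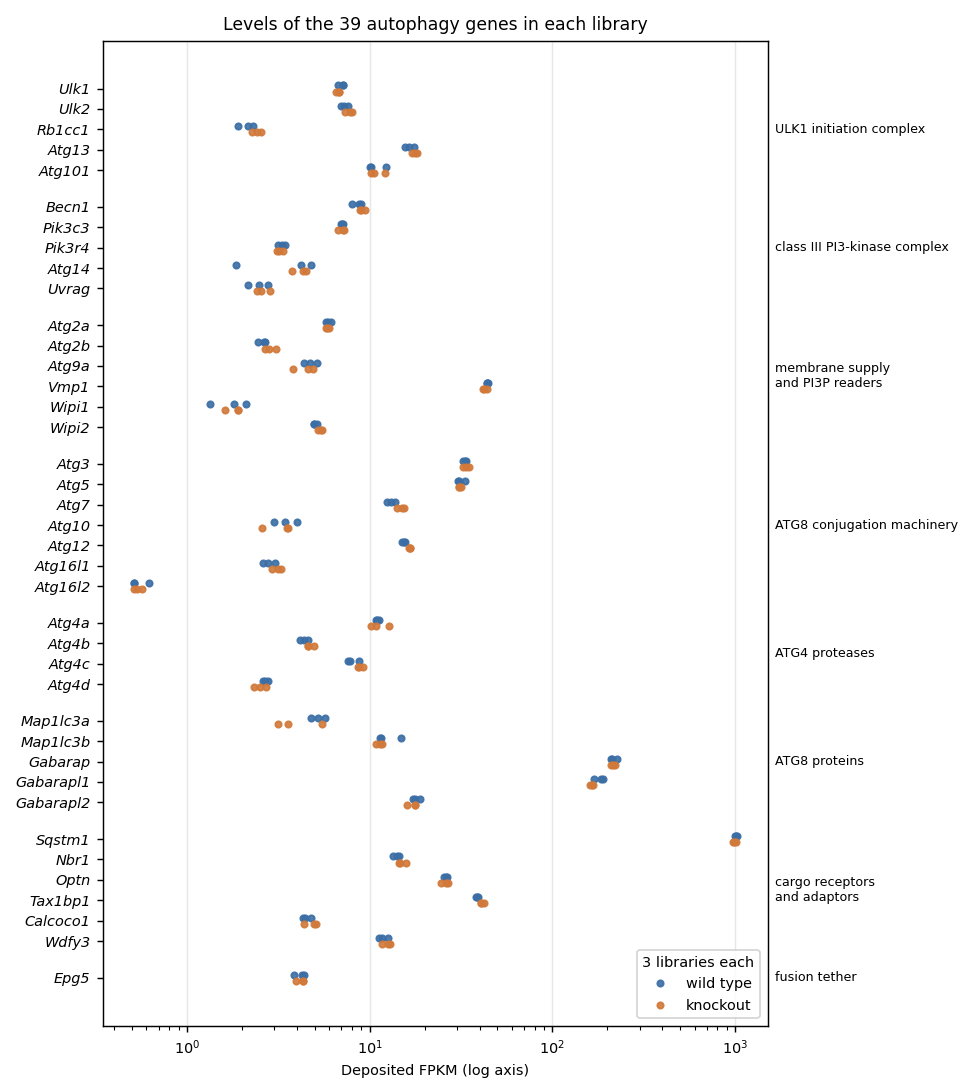
Deposited FPKM (horizontal log axis) of the 39 autophagy genes in each of the 3 wild-type (blue) and 3 knockout (orange) libraries. The genes range from 0.542 to 1001 mean FPKM, and for most of them the points of both genotypes lie on top of each other compared with the distance between genes.

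For the 39 genes, the deposited FPKM matched counts scaled by library size and by the union of all annotated exons, up to a near-constant factor (median 1.11). These values do not separate a factor in the length from a factor in the library size. A gene with long rarely used exons therefore reads low on this scale. For Map1lc3b the exon union is 7517 bases and the principal transcript 2532 bases, so levels between genes depend on the length used. By principal transcript, Tax1bp1 was above Vmp1, at 136 and 66.9 CPM per kilobase, in reverse of their FPKM order. Wipi2 moved from rank 24 by FPKM to rank 10 of the 39. For the paralogue families below, shares on both lengths are given for some genes.

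The ULK1 initiation complex responds to nutrient state and comprises the kinases ULK1 and ULK2, the scaffold FIP200 (Rb1cc1), ATG13 and ATG101. Atg13 was its most abundant member at 17.1 mean FPKM, with 84.9, 80.6 and 76.4 CPM in WT and 85.3, 83.2 and 88.1 CPM in KO. The ranges overlapped, with wild-type replicate 3 the lowest of the 6 (log2 fold change 0.08 ± 0.05 SE, edgeR adjusted p = 0.654). Rb1cc1 was at 37.5, 35.7 and 31.4 CPM in WT and 39.2, 41.3 and 36.8 CPM in KO, also overlapping (log2 fold change 0.17 ± 0.08 SE, edgeR adjusted p = 0.547). Ulk1 and Ulk2 were close to equal per length, at 6.86 and 7.49 mean FPKM, and their log2 fold changes were -0.07 and 0.07. Ulk1 made up 49.1% ± 1.4 (SD, n = 3) of the summed Ulk1 and Ulk2 FPKM in WT and 46.6% ± 1.4 (SD, n = 3) in KO, and the ranges overlapped. By principal transcript length Ulk1 held 53.6% in WT, so the order of the pair depends on the length used. Atg101 was at 17.95 to 21.9 CPM over all 6 libraries, with a log2 fold change of 0.0045. None of the 5 genes was at an unadjusted p under 0.05.

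The class III phosphatidylinositol 3-kinase complex makes the lipid phosphatidylinositol 3-phosphate at the forming membrane. VPS34 (Pik3c3) is its catalytic subunit, VPS15 (Pik3r4) its regulatory subunit and Beclin 1 (Becn1) its core, while ATG14 directs it to autophagosome formation and UVRAG to endosomes. Becn1 was the most abundant at 8.83 mean FPKM and 63.2, 69.8 and 70.8 CPM in WT against 73.6, 70.4 and 69.4 CPM in KO, which overlapped (log2 fold change 0.07 ± 0.06 SE, edgeR adjusted p = 0.766). Pik3c3 lay between 33.5 and 35.7 CPM in all 6 libraries and Pik3r4 between 33.2 and 37.3 CPM. Uvrag lay between 21.7 and 28.5 CPM. Atg14 had the widest spread of the 39 genes. It was at 20.2, 23.1 and 9.02 CPM in WT and 20.6, 17.95 and 21.5 CPM in KO, so wild-type replicate 3, with 709 counts where the others held 1313 to 1721, stood apart. Its log2 fold change was 0.20 ± 0.31 SE with all libraries and -0.11 without that one, and the interval ran from 0.698-fold to 1.89-fold. No direction can be given for Atg14 from these libraries, and the cause of the low value was not tested.

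Among the genes for membrane supply and lipid reading, Vmp1 was the most abundant at 43.4 mean FPKM. VMP1 is an endoplasmic reticulum scramblase that works beside the lipid transfer proteins ATG2A and ATG2B, and ATG9A is the scramblase of the vesicles that seed the autophagosome. Vmp1 was at 189 to 192 CPM in the wild-type libraries and at 178, 188 and 180.4 CPM in the knockout libraries. The groups did not overlap, though knockout replicate 2 at 188 CPM came close to the lowest wild-type library at 189 CPM (log2 fold change -0.06 ± 0.04 SE, edgeR adjusted p = 0.634). Wipi2, which reads the phosphatidylinositol 3-phosphate mark and recruits ATG16L1, was at 58.3, 58.7 and 60.7 CPM in WT and 63.4, 60.8 and 63.8 CPM in KO. Here too the groups were separate by a narrow margin and the difference did not pass (log2 fold change 0.08 ± 0.05 SE, edgeR adjusted p = 0.630). Its paralogue Wipi1 was lower, at 6.68 to 10.3 CPM. Atg2a held 69.6% ± 1.5 (SD, n = 3) of the summed Atg2 FPKM in WT and 67.3% ± 1.9 (SD, n = 3) in KO, overlapping. By principal transcript length Atg2a held 60.8% in WT. Atg2b had a log2 fold change of 0.13 and Atg2a of -0.03, and neither passed.

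Atg9a carries a limit from its annotation. Of its exon bases, 31.8% are shared on the same strand with Gm29253, a processed transcript, so counts of one gene could be assigned to the other. Atg9a was at 27.96, 30.5 and 33.1 CPM in WT and 29.4, 24.5 and 31.2 CPM in KO. The low knockout replicate 2 was the library in which Gm29253 was highest, at 7.68 CPM, where the other 5 libraries had 0 to 1.44 CPM. Summed over both genes the values were 27.96, 30.9 and 33.1 CPM in WT and 29.6, 32.2 and 32.6 CPM in KO. All 3 knockout sums lay within the range of the wild-type sums. The cause of the low Atg9a value in knockout replicate 2 was not tested.

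The conjugation machinery joins ATG8 proteins to membrane lipid in the manner of ubiquitin. ATG7 is the activating enzyme of both conjugation systems, ATG3 and ATG10 are the conjugating enzymes, and ATG12 is a ubiquitin-like protein that is linked to ATG5 and, with ATG16L1, directs lipidation. Atg3 and Atg5 were the most abundant at 33.4 and 31.3 mean FPKM. Atg3 was at 116, 115 and 119 CPM in WT and 122, 118 and 114 CPM in KO, overlapping throughout (log2 fold change 0.017 ± 0.044 SE, edgeR adjusted p = 0.933). Atg5 was at 80.9 to 87.3 CPM in WT and 80.2 to 81.9 CPM in KO.

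Atg7, on chromosome 6 from 114643097 to 114860614 on the plus strand (GRCm38), had the smallest p of the 39 genes. It was at 107, 97.1 and 102 CPM in WT and 116, 109.9 and 119 CPM in KO. Every knockout library was above every wild-type library, by a margin smaller than the spread within either group. The log2 fold change was 0.18 ± 0.05 SE, with a 95% interval of 1.04-fold to 1.23-fold and an edgeR adjusted p of 0.310. Atg7 was at an unadjusted p under 0.05 in each of the 13 alternative fits, and its adjusted p ran from 0.110 with DESeq2 to 0.590, so no fit called it. Atg12 was at 129, 134 and 134 CPM in WT and 141, 143 and 142 CPM in KO, with narrow and separate groups (log2 fold change 0.10 ± 0.04 SE, edgeR adjusted p = 0.432). The ATG12 partner Atg5 had a log2 fold change of -0.04, opposite in sign.

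Atg16l1 was at 30.04, 33.1 and 28.1 CPM in WT and 34.96, 33.7 and 31.1 CPM in KO, which overlapped (log2 fold change 0.13 ± 0.08 SE, edgeR adjusted p = 0.642). Its paralogue Atg16l2 was the lowest of the machinery at 4.88 to 5.93 CPM. Atg16l1 held 83.6% ± 2.5 (SD, n = 3) of the summed FPKM of both genes in WT and 85.3% ± 1.0 (SD, n = 3) in KO. By principal transcript length its wild-type share was 92.2%. Atg10 was low as well, at 4.93 to 7.69 CPM, and its interval ran from 0.696-fold to 1.23-fold.

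**Figure D3:**
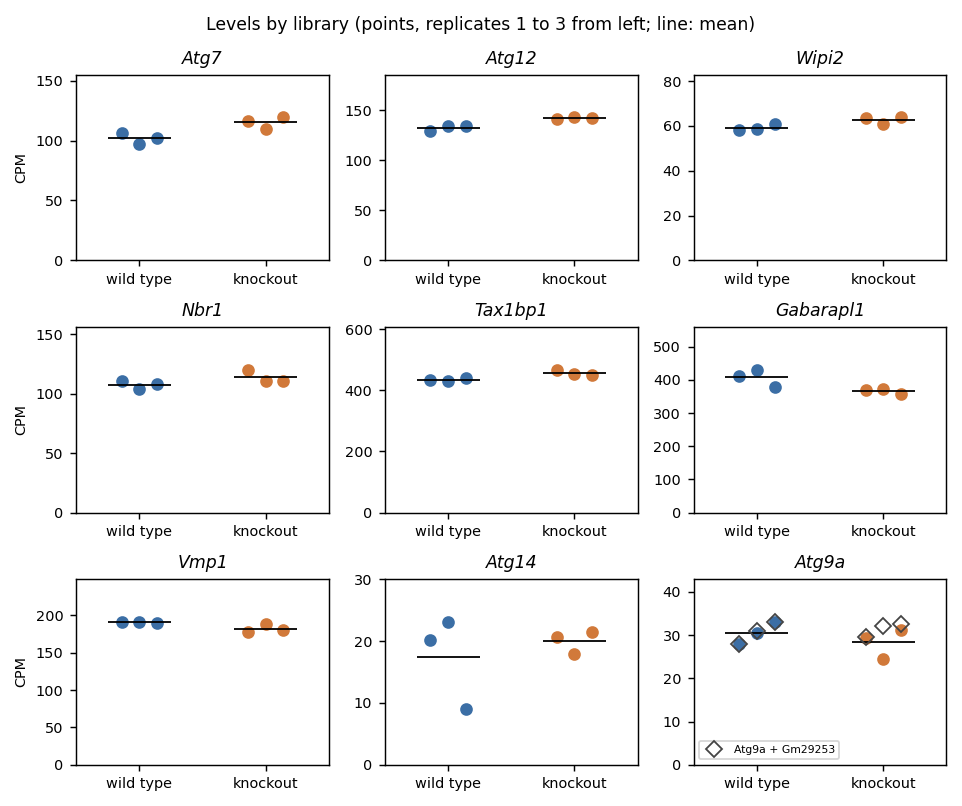
Levels in CPM (vertical axes from 0) of 9 autophagy genes in each library, as points, with the group mean as a line; open diamonds in the Atg9a panel add the counts of the overlapping Gm29253. The first 7 panels are the genes whose groups do not overlap, all with small gaps, and in the Atg14 panel wild-type replicate 3 stands at 9.02 CPM.

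The ATG4 proteases cut newly made ATG8 proteins just after a glycine and also release them from membranes. Atg4a was the most abundant at 11.1 mean FPKM, followed by Atg4c (8.46 FPKM), Atg4b (4.55 FPKM) and Atg4d (2.60 FPKM). This order depends on the length used. By principal transcript, Atg4b and Atg4c came to 25.8% and 25.2% of the family in wild-type libraries, beside 39.3% for Atg4a. Atg4a was at 32.3, 32.6 and 33.3 CPM in WT and 37.6, 29.9 and 31.8 CPM in KO, with the knockout values on both sides of the wild-type ones (log2 fold change 0.015 ± 0.090 SE, edgeR adjusted p = 0.975). Of the 50-base sequences of Atg4a, 51.2% also occur in Atg4a-ps, a copy listed at 1.23 to 4.08 CPM, so reads of the copies may be shared and the level of Atg4a is uncertain. Atg4d held 10.3% ± 0.07 of the summed ATG4 FPKM in WT and 9.23% ± 0.30 in KO (SD, n = 3 each), and the groups did not overlap. The exact permutation p was 0.1, the smallest that 3 against 3 libraries allow, so this share did not pass. The log2 fold changes of Atg4b, Atg4c and Atg4d were 0.09, 0.11 and -0.10, with edgeR adjusted p of 0.689, 0.643 and 0.724. Atg4d overlaps Kri1 on the opposite strand over 19.3% of its exon bases, Kri1 was at 51.6 to 59.0 CPM, and no source used here says if counting was by strand.

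The coding ends of 4 of the ATG8 genes show the stretch that the ATG4 proteases act on. The last 39 bases of each principal coding sequence, from GENCODE M21 and ending in the stop codon, are given in lower case with the codon of the acceptor glycine in capitals. That glycine is the residue that is joined to membrane lipid after cleavage.
Gabarap: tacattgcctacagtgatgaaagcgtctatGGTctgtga
Gabarapl1: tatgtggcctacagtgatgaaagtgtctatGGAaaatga
Gabarapl2: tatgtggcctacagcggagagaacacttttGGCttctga
Map1lc3a: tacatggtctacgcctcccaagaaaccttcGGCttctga
The glycine is codon 116 in the 3 GABARAP genes and codon 120 in Map1lc3a, and in these 4 genes it is followed by 1 more codon before the stop.

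The 5 ATG8 genes differed widely in level. Gabarap and Gabarapl1 made up most of the family, Gabarapl2 and Map1lc3b followed at 17.6 and 11.9 mean FPKM, and Map1lc3a, the LC3A gene, was lowest at 4.64 FPKM. Gabarap (chromosome 11, 69991143 to 69994951, plus strand, GRCm38) was at 429, 468 and 438 CPM in WT and 439, 452 and 428 CPM in KO, which overlapped (log2 fold change -0.02 ± 0.04 SE, edgeR adjusted p = 0.923). Gabarapl1 (chromosome 6, 129533160 to 129542346, plus strand, GRCm38) was at 412, 431 and 379 CPM in WT and 369, 373 and 359 CPM in KO. All knockout libraries were below all wild-type libraries, and the gap of the nearest pair was smaller than the wild-type spread (log2 fold change -0.15 ± 0.05 SE, 95% interval 0.829-fold to 0.979-fold, edgeR adjusted p = 0.363). Of the Gabarapl1 exon bases, 28.3% overlap 1700101I11Rik on the opposite strand, listed at 1.45 to 3.27 CPM.

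Map1lc3b, the LC3B gene, was at 95.1, 126 and 96.4 CPM in WT and 89.8, 95.1 and 97.4 CPM in KO. Wild-type replicate 2 stood above the rest and the other 5 libraries overlapped (log2 fold change -0.17 ± 0.11 SE, edgeR adjusted p = 0.655). Map1lc3a was at 6.82, 7.54 and 6.31 CPM in WT and 7.20, 4.13 and 4.69 CPM in KO, with knockout replicate 1 inside the wild-type range. Its log2 fold change was -0.37 ± 0.22 SE with all libraries, -0.64 without knockout replicate 1 and -0.22 without knockout replicate 2. Gabarapl2 was at 41.5 to 49.1 CPM with a log2 fold change of -0.08. All 5 ATG8 log2 fold changes were below 0, with a median of -0.15, and 0 of 5 passed the test. The sign of Gabarap turned to 0.019 without wild-type replicate 2. Of the 50-base sequences, 12.2% of those of Gabarapl2 and 5.77% of those of Map1lc3b also occur in other genes, pseudogenes among them. The pseudogene Gm6055 shares 3.67% of those of Map1lc3b and was listed at 19.1 to 25.5 CPM.

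As a share of the summed ATG8 FPKM, Gabarap held 48.8%, 49.7% and 51.3% in WT and 51.8%, 52.6% and 52.1% in KO. Gabarapl1 held 42.9%, 41.9% and 40.6% in WT and 39.97%, 39.8% and 40.05% in KO. Each share separated the genotypes, by a group mean difference of 2.25 and -1.89 percentage points. These genes fill most of the same sum, so a lower share of Gabarapl1 raises that of Gabarap and the shares are not independent. In CPM, Gabarap itself overlapped between the genotypes. The exact permutation p was 0.1 for both shares, the smallest this design can give, and the adjusted p over the 12 shares compared in 5 families was 0.4. Map1lc3b held 2.90% ± 0.33 (SD, n = 3) in WT and 2.74% ± 0.16 (SD, n = 3) in KO. By principal transcript length, a scale added after the data were seen, the wild-type shares were 52.4% for Gabarap, 35.6% for Gabarapl1 and 6.61% for Map1lc3b. Gabarap and Gabarapl1 led on both lengths. Gabarapl2, at 4.16% of the family FPKM above Map1lc3b, was below it by principal transcript at 4.44%.

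**Figure D4:**
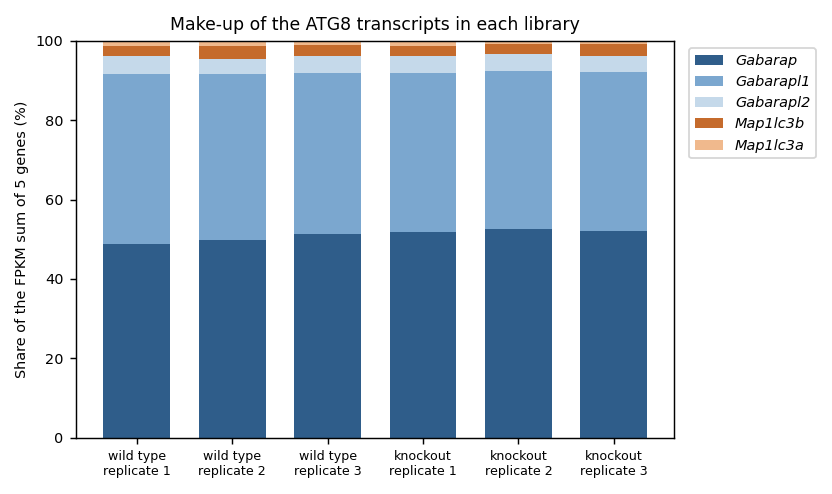
Share of the summed FPKM of the 5 ATG8 genes (vertical axis, percent) held by each gene in each of the 6 libraries, as stacked bars. Gabarap and Gabarapl1 make up about the same large share in every library, with Gabarap between 48.8% and 52.6%.

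Cargo receptors link what is to be degraded to ATG8 proteins. Sqstm1 encodes p62, which binds ubiquitylated protein and is itself degraded by autophagy, and its gene is also a target of the oxidative stress factor NRF2. Sqstm1 (chromosome 11, 50199366 to 50210827, minus strand, GRCm38) was at 3738, 3882 and 3766 CPM in WT and 3681, 3764 and 3616 CPM in KO. The groups overlapped, with knockout replicate 2 above the lowest wild-type library (log2 fold change -0.04 ± 0.02 SE, edgeR adjusted p = 0.574). Its 95% interval, -0.094 to 0.010 on the log2 scale, was the narrowest of the 39 genes. Mrnip overlaps 17.3% of its exon bases on the opposite strand and was listed at most at 0.750 CPM.

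Tax1bp1, a receptor for ubiquitylated cargo that also limits inflammatory signalling, lies on chromosome 6 from 52713729 to 52766780 on the plus strand. It was at 433, 431 and 439 CPM in WT and 468, 453 and 452 CPM in KO. The groups were separate, and the size was small (log2 fold change 0.08 ± 0.03 SE, 95% interval 0.0023 to 0.15, edgeR adjusted p = 0.459). Nbr1, which works with p62 on aggregates, was at 111, 104 and 108 CPM in WT and 120.3, 111 and 111 CPM in KO, where the groups were separate by under 1 CPM. Its edgeR adjusted p was 0.635. Optn, the optineurin gene of mitochondrial and bacterial clearance, was at 102 to 112 CPM over all libraries. Calcoco1, a receptor for the endoplasmic reticulum, lay between 27.8 and 32.3 CPM. Wdfy3, whose product ALFY is a scaffold for aggregate clearance, lay between 193 and 220.4 CPM. Of the 6 genes, 4 had log2 fold changes above 0, and 0 passed.

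Epg5, the tether that makes autophagosomes fuse with late endosomes and lysosomes, was at 43.1, 48.1 and 49.2 CPM in WT and 44.2, 47.8 and 48.3 CPM in KO. The group means differed by less than either SD (46.8 ± 3.3 against 46.8 ± 2.2 CPM, n = 3 each), and the log2 fold change of -0.0017 had an interval of 0.891-fold to 1.12-fold.

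The genes around this machinery were described from 5 further lists, none of which overlaps it. Over their 78 genes, 0 passed the adjusted threshold, 16 were at an unadjusted p under 0.05 (9 higher, 7 lower; 20.5%, beside 10.4% of all genes tested and 13.0% of those with at least 1 FPKM) and the median log2 fold change was 0.020. These counts describe the lists and were not tested against other genes. Of the 11 partners of autophagosome formation, 1 (9.09%) was at an unadjusted p under 0.05, the p53-induced Trp53inp1 (log2 fold change 0.13 ± 0.05 SE, edgeR adjusted p = 0.424). The most abundant were Sh3glb1, which encodes a Beclin 1 binding membrane-curving protein (79.5 mean FPKM), and Tecpr1 (22.9 FPKM), with log2 fold changes of 0.02 and 0.05.

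Of the 13 genes for fusion with the lysosome, 5 were at an unadjusted p under 0.05 (38.5%). That share was 10.4% over all genes tested and 13.0% over those with at least 1 FPKM. Of the 5, 4 encode subunits of the HOPS tethering complex. Vps11, Vps39 and Vps41 had log2 fold changes of 0.21, 0.18 and 0.11 (edgeR adjusted p 0.321, 0.350 and 0.433), while Vps18, another subunit, had -0.11 (edgeR adjusted p = 0.386). Subunits of 1 complex thus lay on both sides of 0. Vamp8, the SNARE that completes fusion, was at 145 ± 6 CPM in WT and 133 ± 2 CPM in KO (SD, n = 3 each; log2 fold change -0.12). Its edgeR adjusted p was 0.410. The most abundant were the late endosomal GTPase gene Rab7 (261 mean FPKM) and Plekhm1 (60.7 FPKM), which had log2 fold changes of -0.06 and 0.04.

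Of the 14 selective autophagy and mitophagy receptors, Bnip3l and Bnip3, which tag mitochondria under low oxygen, had log2 fold changes of 0.13 and 0.18 (edgeR adjusted p 0.262 and 0.476). Phb2, an inner mitochondrial membrane receptor, had -0.18 (edgeR adjusted p = 0.410). Bnip3l was also the most abundant at 61.8 mean FPKM, ahead of Tollip at 34.7 FPKM, whose log2 fold change was 0.03.

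The 31 genes of nutrient control hold the kinase complex mTORC1, which represses ULK1, its Rag GTPase regulators and AMPK, which activates ULK1. In this list 7 were at an unadjusted p under 0.05 (22.6%, beside 10.4% of all genes tested), 3 above and 4 below wild type. Mlst8, a core mTOR subunit, was at 26.6 ± 1.7 CPM in WT and 21.8 ± 1.0 CPM in KO (SD, n = 3 each; log2 fold change -0.29). Its edgeR adjusted p of 0.223 was the smallest of the 78. Akt1s1 and Stk11 had log2 fold changes of -0.24 and -0.34, Sesn3 of -0.49, and Deptor, Rragd and Fnip2 of 0.24, 0.14 and 0.12, with edgeR adjusted p of 0.251 to 0.472. AKT1S1 and DEPTOR bind and restrain mTORC1, and LKB1 (Stk11) switches on AMPK. Genes for brakes on mTORC1 thus lay on both sides of 0. Rragc (91.1 mean FPKM) and Fnip2 (85.0 FPKM) were the most abundant. Rragb, singled out after its values were seen, had the lowest value of the list, a log2 fold change of -1.24 ± 0.77 SE at 0.350 to 0.432 CPM in WT and 0.361, 0.082 and 0.055 CPM in KO (edgeR adjusted p = 0.640).

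The 9 transcriptional regulators include the TFEB family that drives autophagy and lysosome genes. Of these 9, 0 were at an unadjusted p under 0.05, beside 10.4% of all genes tested. The most abundant were the stress factors Atf4 (158 mean FPKM) and Nfe2l2 (60.5 FPKM), which encodes NRF2. Their log2 fold changes were 0.18 and -0.05, with edgeR adjusted p of 0.804 and 0.766, and Tfeb had -0.09 at 7.95 mean FPKM.

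**Figure D5:**
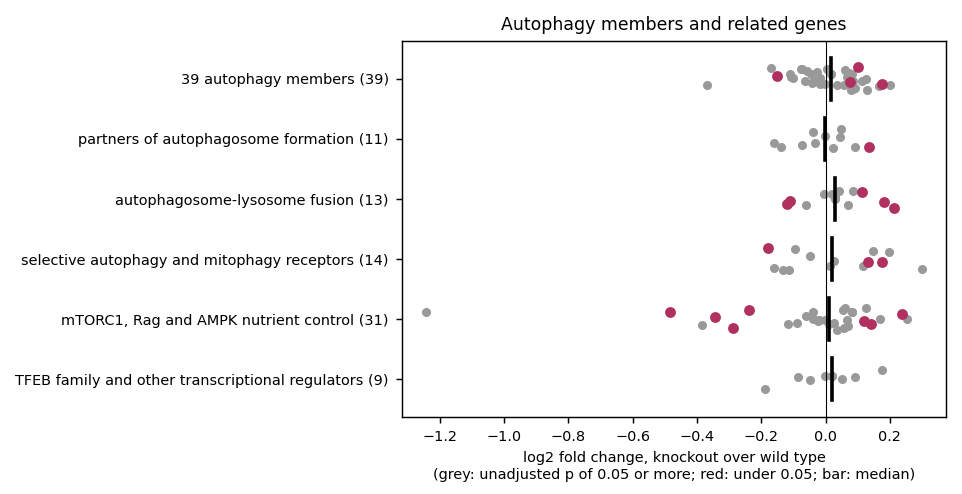
Log2 fold change (horizontal axis, knockout over wild type) of the 39 autophagy genes and of 5 lists of related genes, 1 point per gene, with the list median as a bar and genes at an unadjusted p under 0.05 in red. The medians lie close to 0, and the point at -1.24 is Rragb, at under 1 CPM in every library.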

How the data were processed

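Per the labels' protocols, paired-end sequencing of poly(A) RNA was run on an Illumina NovaSeq. The submitters' processing notes list HISAT2 2.0, while the counter, annotation and strand setting are not given there. The deposited counts are whole numbers per gene. The file headers name them as counts and do not say if they are raw or estimated. The deposited FPKM are levels scaled by gene length and library size, but were not a fixed multiple of the count in every gene. Gm29253 had 1 count at 6.3e-05 FPKM in wild-type replicate 3 and 30 counts at 0.0668 FPKM in wild-type replicate 2. How the counts were made was not tested. There are 12 more columns of values from samples that are not listed, which stayed unused. Gene coordinates are as deposited. They are taken as GRCm38, since 35 of the 39 genes have the same ones in GENCODE M21, the exceptions being Rb1cc1, Optn, Atg9a and Atg4a. That annotation also gave transcripts, shared 50-base sequences and exon overlaps.

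The 6 libraries were grouped by labelled genotype. Genes kept by filterByExpr (16239, with all 39 autophagy genes) were scaled by TMM. Genotype was the single term of two-sided quasi-likelihood tests in edgeR 4.0.16 (R 4.3.3), with Benjamini-Hochberg adjustment over all genes and calls at 0.05. CPM use TMM-scaled library sizes, and intervals are at the 95% level. Shares within families were compared by exact two-sided permutation (scipy 1.17.1), adjusted over the shares. Members and lists were chosen with earlier results of these data known. Named in full were Dclk1, members at an unadjusted p under 0.05 and the most abundant of each role group, and from each further list those at an unadjusted p under 0.05 and the 2 of highest FPKM. Other genes given with values in every library were chosen after their values were seen. So were those singled out for a wide spread or shared exons, and the markers Itgam, Csf1r, S100a8, Csf3r and Mmp8. The fit was tested on simulated counts with 200 changed genes. It called 92% of those changed 4-fold, 64% at 2-fold, 32% at 1.5-fold and 2% at 1.25-fold, and also 9 unchanged genes. The changed genes were drawn from the whole table above a minimum count. The autophagy genes had a smaller median standard error than all genes tested (0.062 against 0.145), and recovery was not simulated for them alone. Among genes drawn this way, differences of the small sizes seen here would thus mostly not be called. Alternatives were RLE scaling, no low-count filter, DESeq2 1.42.0, limma 3.58.1 on log2(FPKM + 1) or log2(FPKM + 0.1) for genes reaching 1 FPKM in 3 libraries, the first also without that filter, replicate number as a block and each library left out. Of the ATG8 genes, 1 coding end is not reported here.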

Additional observations from a re-analysis of the deposited data

How the results depend on the processing

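In all 13 alternatives the number of autophagy genes called was 0. Against 11 genes called over the whole table, no filter on low counts gave 7, DESeq2 455, limma on log2(FPKM + 1) without a filter 3, and leaving out 1 library 7 to 35 (35 and 24 with knockout replicate 1 or wild-type replicate 2 left out, and 7 with wild-type replicate 1 left out). With the replicate number as a block 3 genes were called. Same-numbered libraries correlated by 0.049, 0.027 and 0.017 in their deviations, and different-numbered ones by -0.036 to 0.012. The same-numbered values were thus the highest, though all were near 0. These values do not settle if the numbers pair the libraries, and the main fit used no pairing. The median log2 fold change of the autophagy genes was 0.0087 with the block and ranged from -0.0062 (without knockout replicate 1) to 0.030 (without wild-type replicate 3) when 1 library was left out, so its sign is not settled. Atg16l2 was not tested under the FPKM filter. Of the 39 genes, 27 kept their sign throughout. Epg5 turned to 0.00012 with RLE scaling and to 0.0094, 0.012 and 0.0094 in the 3 limma fits. Leaving out 1 library gave ranges on both sides of 0 for Epg5 (-0.058 to 0.037), Uvrag (-0.033 to 0.15), Atg101 (-0.076 to 0.10), Wipi1 (-0.12 to 0.18), Atg10 (-0.21 to 0.026), Gabarap (-0.045 to 0.019), Atg14 (-0.11 to 0.46), Atg16l2 (-0.098 to 0.043), Atg3 (-0.0062 to 0.041), Atg4a (-0.086 to 0.081), Pik3c3 (-0.035 to 0.0074) and Optn (-0.063 to 0.010). The cause of these turns was not tested. On TMM-scaled counts, the Atg4d share differed by -1.69 percentage points in place of -1.02.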
